A study of Camellia sinensis with 12 samples.

Results

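The genes described here encode the enzymes that make and oxidise glutamate in withering tea leaves. They were taken by the description that the deposited count table gives them: glutamate synthase 1 (MSTRG.7022 and MSTRG.36184), NADH-dependent glutamate synthase 1 (MSTRG.38570 and MSTRG.28369), glutamate dehydrogenase 1 (MSTRG.35351) and glutamate dehydrogenase 2 (MSTRG.49935, MSTRG.24393 and MSTRG.43508). These are 8 of the 52332 genes in the table. Of the 9 genes with 1 of these descriptions, the other (CSS019144, glutamate dehydrogenase 2) had 0 counts in all 12 libraries together. Shoots of a bud and 2 leaves of Camellia sinensis cultivar Longjing43 were plucked and withered in a climate chamber at 25°C, and leaf RNA was sequenced after 0, 9, 15 and 24 h of withering, in 3 libraries per time. The sources used here disagree on whether the chamber was lit. Nothing in them shows if the 3 libraries of each time are separate lots of leaf, so the p-values cover library-to-library spread that could be technical. No unwithered leaves of the later times were analysed here, so withering, time since plucking and hour of the day cannot be told apart.

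Plants build ammonium into amino acids mainly through the cycle of glutamine synthetase and glutamate synthase. Glutamine synthetase adds ammonium to glutamate to form glutamine, and glutamate synthase (also called GOGAT) moves the amide group of glutamine to 2-oxoglutarate, giving a pair of glutamate molecules. The form described as glutamate synthase 1 takes its electrons from ferredoxin. In Arabidopsis it is the main plastid form of green leaves, where it recovers the ammonium set free by photorespiration. The NADH-dependent form is known from roots, young organs and vascular tissue. Glutamate dehydrogenase is a mitochondrial enzyme that can run in both directions and is known in Arabidopsis mostly for oxidising glutamate to 2-oxoglutarate and ammonium when carbohydrate is short. Its beta subunit is the product of GDH1 and its alpha subunit that of GDH2. In tea, glutamate is also a substrate of the synthesis of L-theanine.

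The total count per library was 64931031 to 118261728. Levels are given as CPM (counts per 1000000, with library sizes corrected by TMM, edgeR's trimmed mean scaling) and not per gene length, so levels of different genes are not compared. The test for changes was the quasi-likelihood F test of edgeR, with the 12 libraries in 1 model, and a gene was called at a Benjamini-Hochberg adjusted p under 0.05 over the 26712 genes that passed the filter on low counts, as all 8 genes did. With library size as the only scaling, the median of all genes shifted by -0.20, -0.29 and -0.67 on the log2 scale at 9, 15 and 24 h against 0 h, and the share of higher genes among those called was 37.9, 35.6 and 28.2%, down from 50.3, 51.1 and 47.0%. For the steps from 9 to 15 h and from 15 to 24 h, it was 42.9 and 25.2%, down from 52.3 and 45.7%. The 24 h libraries are therefore the ones whose fold changes depend most on the scaling.

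The loci of the 8 genes lie on 8 different scaffolds of the assembly used by the table, and none overlaps another gene of the table. MSTRG.7022 (CSS022132) spans 1710993 to 1724718 on the minus strand of Scaffold1471, and MSTRG.36184 (CSS029241) spans 1294959 to 1313475 on the plus strand of Scaffold4701. MSTRG.38570 (CSS020045) spans 1104335 to 1117392 on the plus strand of Scaffold529, and MSTRG.28369 (CSS035582) spans 267022 to 279475 on the minus strand of Scaffold3533. The dehydrogenase loci are shorter. MSTRG.35351 (CSS041569) spans 2269574 to 2275326 on the plus strand of Scaffold450. MSTRG.49935 (CSS044463) spans 156806 to 163659 on the minus strand of Scaffold919, MSTRG.24393 (CSS045444) spans 4831476 to 4839398 on the plus strand of Scaffold30, and MSTRG.43508 (CSS004444) spans 1343248 to 1348059 on the minus strand of Scaffold670. The table gives no exons and no transcript lengths. How the authors counted reads that match more than 1 copy is not given in the sources used here, so genes with the same description could have shared reads.

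**Figure D1:**
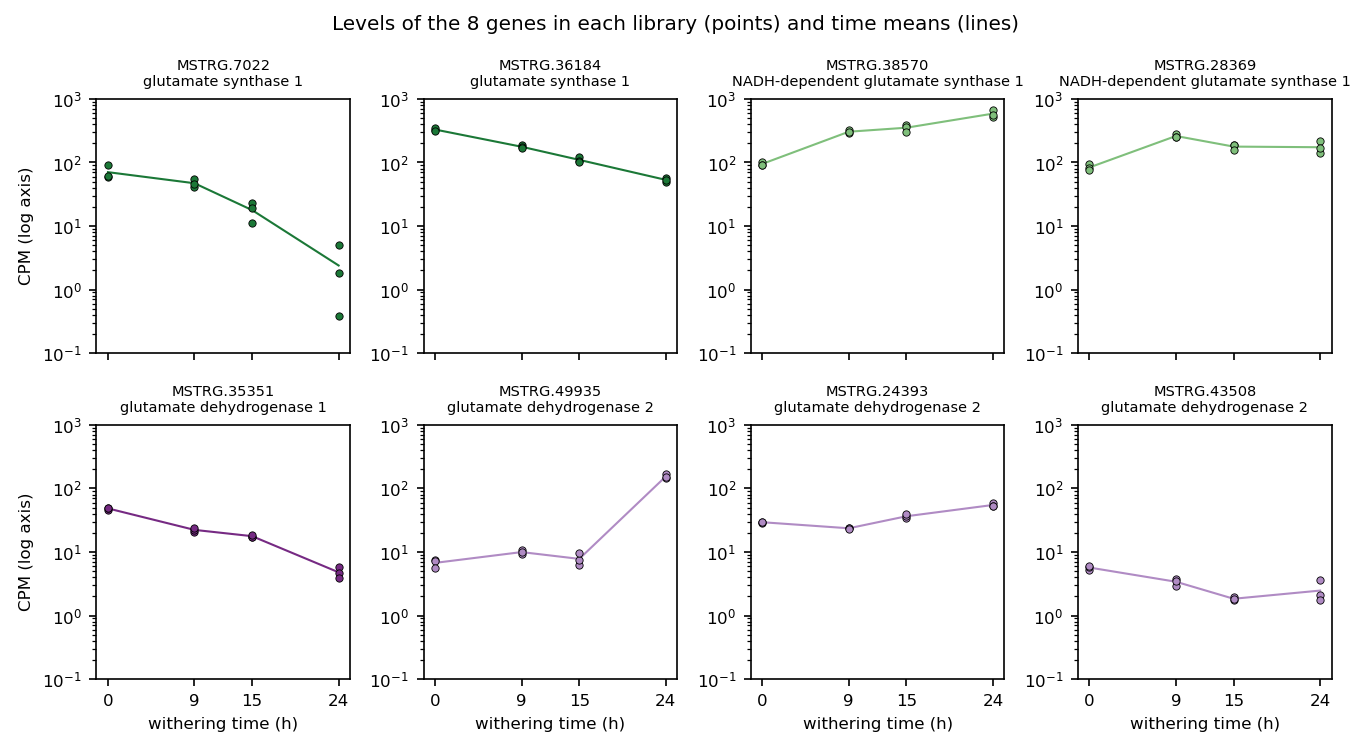
CPM (counts per 1000000, log axis) of the 8 genes against withering time in hours. Each point is 1 of the 3 libraries of a time and each line joins the time means. The glutamate synthase 1 genes and MSTRG.35351 fell, the NADH-dependent genes rose by 9 h, and MSTRG.49935 stayed between 5.66 and 10.6 CPM up to 15 h and lay between 143 and 170 CPM at 24 h.

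The 8 genes moved in opposite directions within each enzyme. At 24 h against 0 h, 4 of the 8 were higher and 4 lower, where 34.7% of all tested genes were higher and 39.1% lower. At 9 h against 0 h, 3 were higher and 4 lower, against 27.1 and 26.8% of all tested genes. At 15 h against 0 h, 3 were higher and 4 lower as well, against 30.3 and 29% of all tested genes. From 9 to 15 h, 1 rose and 4 fell, where the whole table had 19.8% higher and 18.1% lower. From 15 to 24 h, 3 rose and 3 fell, where the whole table had 25.9% higher and 30.8% lower. The median log2 fold change of the 8 genes against 0 h was -0.45 at 9 h, -0.62 at 15 h and -0.15 at 24 h, beside -0.02, -0.01 and -0.14 for all tested genes. For the step from 9 to 15 h it was -0.46 beside 0.01, and for that from 15 to 24 h 0.20 beside -0.08.

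Both glutamate synthase 1 genes, the ferredoxin-dependent form, fell during withering. MSTRG.36184 was at 328, 344 and 316 CPM in the 3 libraries at 0 h, at 187, 174 and 170 CPM at 9 h, at 120, 107 and 102 CPM at 15 h and at 57.1, 50.1 and 52.5 CPM at 24 h. The 4 times did not overlap, and each step was a fall. Against 0 h, its log2 fold change came to -0.90 after 9 h (SE 0.081, adjusted p = 7.76e-07), -1.59 after 15 h (SE 0.082, adjusted p = 3.08e-09) and -2.63 after 24 h (SE 0.085, adjusted p = 1.49e-11). The steps from 9 to 15 h (-0.69, SE 0.080) and from 15 to 24 h (-1.04, SE 0.081) also passed.

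MSTRG.7022 also fell, and it varied more between libraries. It was at 90.8, 59.6 and 60.6 CPM at 0 h, 54.1, 41.0 and 46.2 CPM at 9 h, 23.1, 19.0 and 11.3 CPM at 15 h and 0.381, 4.99 and 1.80 CPM at 24 h. The 24 h values rest on 28, 265 and 114 counts, so the spread at that time is far above counting error. The times did not overlap, but the change at 9 h did not pass the test (log2 fold change -0.58, SE 0.50, adjusted p = 0.357), while a fit of only the libraries compared called it (-0.57, adjusted p = 0.0144). Compared with 0 h, the gene was lower after 15 h (-1.98, SE 0.52, adjusted p = 0.0049) and after 24 h (-4.92, SE 0.61, adjusted p = 7.03e-06). At 24 h, the value was -4.40 without 24 h replicate 1 and -6.05 without 24 h replicate 2, and from 15 to 24 h it was -2.94 (SE 0.57, adjusted p = 0.00068), or -2.40 and -4.06 without those libraries. The fall from 9 to 15 h (-1.40, SE 0.51, adjusted p = 0.0447) was no longer called with DESeq2 (adjusted p = 0.096) or without any 1 of the 0, 9 or 15 h libraries (adjusted p = 0.055 to 0.146 from the same edgeR test).

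The NADH-dependent genes rose together by 9 h and then parted. MSTRG.38570 was at 103, 91.0 and 91.1 CPM at 0 h, 321, 294 and 298 CPM at 9 h, 391, 359 and 306 CPM at 15 h and 515, 680 and 564 CPM at 24 h. The libraries of 0 h and of 24 h stood apart from all others, while those of 9 and 15 h overlapped. On the log2 scale it was above 0 h by 1.68 after 9 h (SE 0.11, adjusted p = 5.74e-08), by 1.89 after 15 h (SE 0.12, adjusted p = 1.51e-08) and by 2.63 after 24 h (SE 0.12, adjusted p = 3.19e-10). The step from 9 to 15 h was 0.21 (SE 0.11) and did not pass (adjusted p = 0.163), and the rise from 15 to 24 h was 0.74 (SE 0.11, adjusted p = 0.000101), or 0.36 (adjusted p = 0.0261) with library size as the only scaling.

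MSTRG.28369 was at 93.0, 80.9 and 76.6 CPM at 0 h, 277, 253 and 253 CPM at 9 h, 190, 186 and 157 CPM at 15 h and 139, 214 and 168 CPM at 24 h. It was highest at 9 h, and the libraries of 15 and 24 h overlapped. The rise at 9 h was 1.64 (SE 0.14, adjusted p = 4.80e-07), close in size to that of MSTRG.38570, and was followed by a fall of -0.55 from 9 to 15 h (SE 0.14, adjusted p = 0.00605). From 15 to 24 h the value was -0.03 (SE 0.14, adjusted p = 0.854). At 24 h the gene was still above 0 h by 1.06 (SE 0.14, adjusted p = 1.24e-05), or by 0.39 (adjusted p = 0.032) when scaled by library size alone, under which the last step was a call as well (-0.41, adjusted p = 0.0345).

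**Figure D2:**
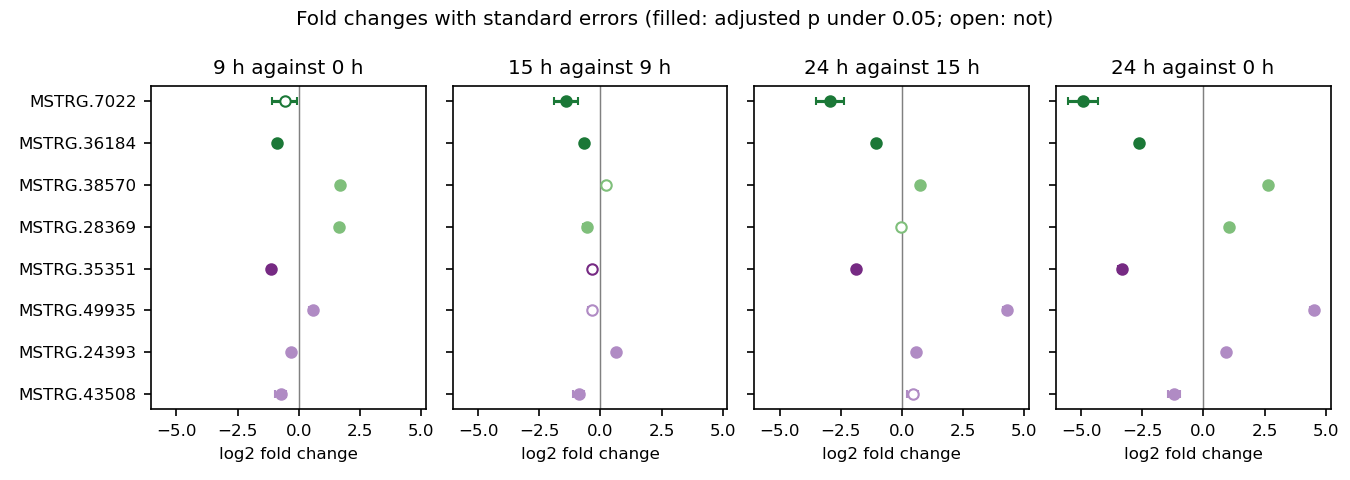
Log2 fold changes of the 8 genes (horizontal axis) in 4 comparisons, with bars of 1 standard error, which for most genes are narrower than the points. Filled points had an adjusted p under 0.05 from edgeR and open points did not. Dark green marks glutamate synthase 1, light green the NADH-dependent form, dark purple glutamate dehydrogenase 1 and light purple glutamate dehydrogenase 2. MSTRG.49935 moved by 4.31 from 15 to 24 h.

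Glutamate dehydrogenase 1 fell and the genes described as glutamate dehydrogenase 2 took 3 different courses. MSTRG.35351, the single glutamate dehydrogenase 1 gene, was at 45.8, 49.9 and 49.7 CPM at 0 h, 20.5, 22.4 and 23.9 CPM at 9 h, 17.3, 17.5 and 18.4 CPM at 15 h and 5.79, 4.71 and 3.86 CPM at 24 h. The times did not overlap. Against 0 h its log2 fold change came to -1.12 after 9 h (SE 0.12, adjusted p = 5.61e-06), -1.45 after 15 h (SE 0.13, adjusted p = 4.20e-07) and -3.34 after 24 h (SE 0.14, adjusted p = 1.28e-10). Between 9 and 15 h the change was -0.33 (SE 0.12) with an adjusted p of 0.052, just above the threshold. That step was called with DESeq2 (-0.34, adjusted p = 0.0219) and in a fit of only the 6 libraries of those times (-0.36, adjusted p = 0.0109). From 15 to 24 h it fell by 1.89 (SE 0.13, adjusted p = 7.93e-08).

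MSTRG.49935 rose late. Its levels were 7.43, 7.12 and 5.66 CPM at 0 h, 10.6, 9.22 and 10.1 CPM at 9 h, 6.31, 7.50 and 9.54 CPM at 15 h and 170, 143 and 149 CPM at 24 h. The 24 h libraries were far above the other 9, and the 15 h libraries overlapped those of both 0 and 9 h. The small rise at 9 h passed the test (0.56, SE 0.15, adjusted p = 0.00517), and the value at 15 h against 0 h did not (0.21, SE 0.15, adjusted p = 0.245) and was -0.09 with library size alone. At 24 h the gene was higher than at 0 h by 4.52 (SE 0.16, adjusted p = 4.16e-11) and higher than at 15 h by 4.31 (SE 0.16, adjusted p = 4.90e-10). Ranked among the 26712 tested genes, its rise from 15 to 24 h was the 342nd largest, within the top 1.28%. Next of the 8 in that step was MSTRG.7022, at 4.20% among the falls. At 24 h against 0 h, MSTRG.7022 ranked at 3.28% among the falls and MSTRG.49935 at 4.22% among the rises.

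MSTRG.24393 was at 28.7, 29.5 and 29.9 CPM at 0 h, 24.2, 23.9 and 22.7 CPM at 9 h, 34.2, 36.2 and 39.0 CPM at 15 h and 58.5, 53.0 and 53.3 CPM at 24 h. The times did not overlap, with 9 h lowest and 24 h highest. It fell by 0.32 at 9 h (SE 0.079, adjusted p = 0.00397) and rose from 9 to 15 h by 0.63 (SE 0.079, adjusted p = 3.64e-05) and from 15 to 24 h by 0.59 (SE 0.078, adjusted p = 3.11e-05). Against 0 h it was higher by 0.31 after 15 h (SE 0.078, adjusted p = 0.00388) and by 0.90 after 24 h (SE 0.079, adjusted p = 2.36e-07). With library size as the only scaling these became 0.02 (adjusted p = 0.848) and 0.23 (adjusted p = 0.00986), so the rise at 15 h rests on the scaling.

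MSTRG.43508 had the lowest counts of the dehydrogenase genes, with 109 to 603 in a library. It was at 5.14, 5.80 and 6.12 CPM at 0 h, 3.73, 2.93 and 3.54 CPM at 9 h, 1.76, 1.95 and 1.79 CPM at 15 h and 3.57, 2.11 and 1.73 CPM at 24 h. The 0 h libraries were above all others, and those of 15 and 24 h overlapped. Its log2 fold change against 0 h came to -0.74 after 9 h (SE 0.23, adjusted p = 0.0164), -1.63 after 15 h (SE 0.24, adjusted p = 6.11e-05) and -1.20 after 24 h (SE 0.24, adjusted p = 0.000512). The call at 9 h ended without 0 h replicate 3 (-0.68, adjusted p = 0.0548) or 9 h replicate 2 (-0.64, adjusted p = 0.0695). The step from 15 to 24 h (0.43, SE 0.24, adjusted p = 0.142) was called without 24 h replicate 3 (0.64, adjusted p = 0.0321) and was 0.06 without 24 h replicate 1.

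Sums over genes of the same description do not depend on how reads were split between copies, if each shared read was counted once. They do depend on it if shared reads were dropped or counted for each copy. This test was chosen after the data were seen. The 2 glutamate synthase 1 genes together had 400 ± 21.3 CPM before withering, then 224 ± 14.7 after 9 h, 128 ± 14.7 after 15 h and 55.6 ± 1.67 CPM after 24 h (SD, n = 3), a change of -2.85 over the 24 h on the log2 scale (SE 0.094, adjusted p = 1.79e-11 from edgeR). The NADH-dependent pair went from 178 ± 15.2 CPM to 565 ± 28.7, 530 ± 60.7 and 760 ± 123 CPM, a change of 2.09 over the 24 h (SE 0.12, adjusted p = 3.89e-09 from edgeR). The 3 glutamate dehydrogenase 2 genes together were at 41.8 ± 0.598, 37.0 ± 1.36 and 46.1 ± 4.05 CPM at 0, 9 and 15 h and at 212 ± 18.2 CPM at 24 h. Their sum was not called at 9 h (-0.18, SE 0.083, adjusted p = 0.0892) or 15 h (0.14, SE 0.083, adjusted p = 0.164) and was higher at 24 h by 2.34 (SE 0.087, adjusted p = 5.20e-11 from edgeR). The 9 h value was called lower with library size alone (-0.38, adjusted p = 0.000649) and in a fit of only the libraries compared (-0.17, adjusted p = 0.0424), and the 15 h value was -0.15 with library size alone (adjusted p = 0.0878).

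Ratios of counts within a library do not depend on library scaling. Since they are not per gene length, only their change over time is read. The ratio of the glutamate synthase 1 genes to the NADH-dependent genes started at 2.25 ± 0.103 (SD, n = 3) and was 0.396 ± 0.00581 after 9 h, 0.241 ± 0.00862 after 15 h and 0.0745 ± 0.0131 after 24 h. The ratio of MSTRG.35351 to the glutamate dehydrogenase 2 genes started at 1.16 ± 0.0429 and was 0.604 ± 0.0649 after 9 h, 0.386 ± 0.0213 after 15 h and 0.0225 ± 0.00318 after 24 h. The libraries of the 4 times did not overlap in either ratio. In an exact permutation test of the F statistic of the log2 ratio over the 15400 ways to divide the 12 libraries into 4 sets of 3, both had p = 6.49e-05, the smallest this design can give (adjusted p = 0.000152 over the 7 ratios tested).

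Copies of the same description also changed against each other. MSTRG.38570 had 1.14 ± 0.0447 counts for each count of MSTRG.28369 before withering, 1.17 ± 0.0113 after 9 h, 1.98 ± 0.0698 after 15 h and 3.41 ± 0.263 after 24 h (exact permutation p = 0.00026, adjusted p = 0.000455). The ratio thus overlapped between 0 and 9 h, while both genes rose, and moved after 9 h. MSTRG.7022 to MSTRG.36184 went from 0.214 ± 0.0551 at 0 h to 0.266 ± 0.0275, 0.160 ± 0.0441 and 0.0469 ± 0.0478 (exact permutation p = 0.00175, adjusted p = 0.00175). The log2 ratio of this pair at 24 h minus that at 0 h was -2.87, and was -1.83 without 24 h replicate 1 and -3.77 without 24 h replicate 2. MSTRG.49935 to MSTRG.24393 went from 0.230 ± 0.0362 at 0 h to 0.422 ± 0.0319, 0.212 ± 0.0303 and 2.81 ± 0.103 (exact permutation p = 0.00039, adjusted p = 0.000545). MSTRG.49935 to MSTRG.43508 rose from 1.20 ± 0.262 at 0 h to 67.4 ± 19.4 at 24 h (exact permutation p = 6.49e-05, adjusted p = 0.000152), and MSTRG.24393 to MSTRG.43508 from 5.19 ± 0.361 to 24.1 ± 7.30 (exact permutation p = 0.000974, adjusted p = 0.00114).

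**Figure D3:**
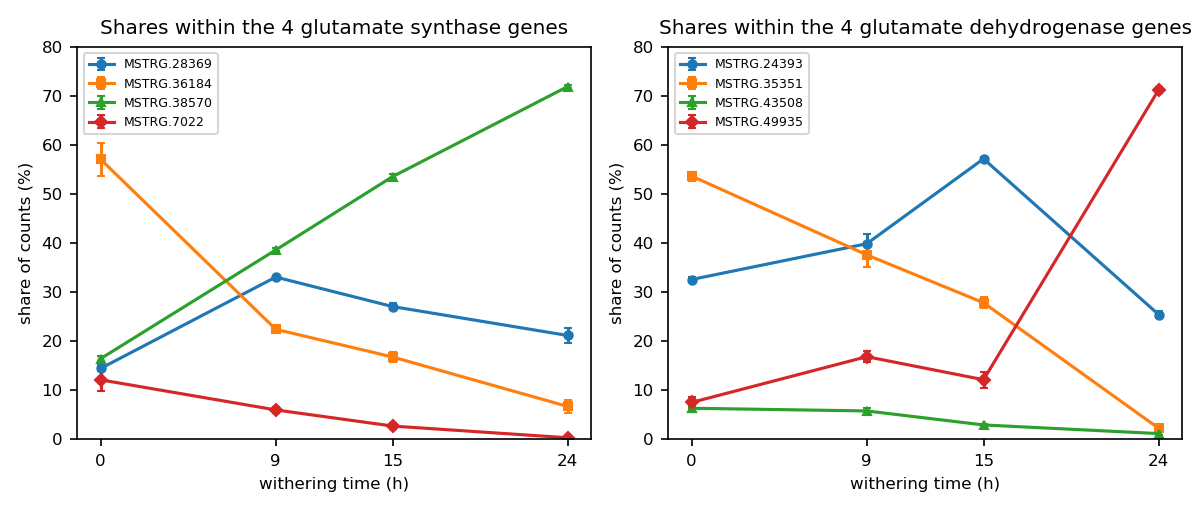
Share of counts (%) of each gene within the 4 glutamate synthase genes (left) and within the 4 glutamate dehydrogenase genes (right) against withering time in hours, as the mean of 3 libraries with bars of 1 SD. MSTRG.36184 went from 57.1 to 6.66% and MSTRG.38570 from 16.4 to 71.9% of the synthase counts. MSTRG.49935 went from 7.48 to 71.3% of the dehydrogenase counts.

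As shares, the NADH-dependent genes held 30.8 ± 0.981% of the counts of the 4 glutamate synthase genes before withering (SD, n = 3), 71.7 ± 0.298% after 9 h, 80.6 ± 0.562% after 15 h and 93.1 ± 1.14% after 24 h. Within the 4 glutamate dehydrogenase genes, MSTRG.35351 held 53.7 ± 0.929% at 0 h, MSTRG.24393 held 57.2 ± 0.384% at 15 h and MSTRG.49935 held 71.3 ± 0.621% at 24 h. A different gene thus had the most dehydrogenase counts at each of these times. Counts are not per gene length, so this does not rank the genes by transcript level, and only the change of each share is read. MSTRG.24393 at 39.9 ± 1.90% and MSTRG.35351 at 37.6 ± 2.57% overlapped at 9 h.

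Genes around these enzymes were taken from lists matched on descriptions. As a baseline, 27.1% of all tested genes were called as risen by 9 h and 26.8% as fallen. By 24 h, rises made up 34.7% and falls 39.1% of all tested genes. Among the 17 tested genes that use glutamate or form its amides and derivatives, 9 had risen and 3 had fallen by 9 h, and by 24 h 11 had risen and 4 had fallen, with a median log2 fold change of 1.10 at 24 h beside -0.14 for all tested genes. Glutamine-dependent asparagine synthase 1 (MSTRG.21058), whose Arabidopsis counterpart moves nitrogen into asparagine in darkened leaves, had 4.56 ± 0.200 CPM before withering and 196 ± 4.36, 249 ± 6.83 and 221 ± 3.66 CPM at the later times (SD, n = 3), a rise of 5.60 over the 24 h (SE 0.076, adjusted p = 4.42e-14 from edgeR). A second gene described as glutamine-dependent asparagine synthase 1, MSTRG.50472, was at 1.33 CPM at 0 h and 0.867 CPM at 24 h (-0.62, adjusted p = 0.204 from edgeR). Aspartate aminotransferase 3 (MSTRG.51568), which exchanges the amino group between glutamate and aspartate, rose from 53.6 ± 7.15 to 517 ± 84.3 CPM at 24 h (3.27, SE 0.14, adjusted p = 2.16e-10). Aspartate aminotransferase 5 (MSTRG.34914) went the other way, from 97.9 to 24.7 CPM (-1.98, adjusted p = 3.17e-10). For 2-oxoglutarate, the carbon skeleton of glutamate, 7 of 12 genes for its formation, use and transport had risen and 4 had fallen by 9 h, and by 24 h 6 had risen and 3 had fallen. Isocitrate dehydrogenase 1, a subunit of the mitochondrial enzyme that forms 2-oxoglutarate, had 2 genes among them that rose, MSTRG.20996 from 6.34 ± 0.681 to 57.6 ± 1.84 CPM (3.18, SE 0.099) and MSTRG.34304 from 38.5 ± 1.95 to 94.4 ± 14.5 CPM at 24 h. The third gene of that description, MSTRG.36233, had a value of -0.09 at 24 h (adjusted p = 0.690). The list also holds a gene that uses 2-oxoglutarate, the E1 component of 2-oxoglutarate dehydrogenase (MSTRG.1473), which was among the risen ones at both times (1.16 at 24 h).

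The counts of the next lists stand beside 27.1% higher and 26.8% lower of all tested genes at 9 h. At 24 h these shares were 34.7 and 39.1%. Of the 7 glutamine synthetase genes, 3 had risen and 3 had fallen by 9 h, and 2 had risen and 4 had fallen by 24 h, when the plastid form glutamine synthetase 2 (MSTRG.46808) was at 30.7 ± 4.06 CPM after 385 ± 8.85 CPM at 0 h. A gene described as glutamine synthase clone R1 (MSTRG.1757), a cytosolic form in Arabidopsis, fell from 975 ± 38.1 to 242 ± 29.0 CPM (-2.01, SE 0.088). Of the other genes described as glutamine synthase clone R1, MSTRG.11376 was at 137, 437, 459 and 208 CPM at 0, 9, 15 and 24 h. MSTRG.37743 rose to 116 CPM at 24 h (0.95). The low-count genes MSTRG.25784 (2.73 CPM at 0 h) and MSTRG.8156 (2.50 CPM at 0 h) fell by 24 h (-2.54 and -2.02). A further list held glycine and serine genes, among them the photorespiratory steps that set ammonium free in leaves. At 24 h, 11 of its 21 genes were lower and 5 higher. It also holds serine hydroxymethyltransferases 3, 4, 6 and 7, which were not separated from the photorespiratory steps. Of the 5 higher genes, MSTRG.13076, MSTRG.17590 and MSTRG.18554 are of these. So are MSTRG.40183 (-1.19) and MSTRG.4292 (-0.68) among the 11 lower genes. The serine transhydroxymethyltransferase 1 genes MSTRG.16059 and MSTRG.20675 fell, with log2 fold changes of -4.72 (SE 0.18) and -4.66 (SE 0.18), while MSTRG.25689 of the same description rose from 24.5 to 74.3 CPM (1.60, adjusted p = 9.59e-10). Among ferredoxins, which carry the electrons that the ferredoxin-dependent synthase uses, and ferredoxin-NADP reductases, 2 of 8 were higher and 2 lower at 24 h. All ferredoxin genes tested in this list were described as ferredoxin 3. Ferredoxin-NADP(+)-oxidoreductase 2 (MSTRG.45895) fell from 274 ± 29.4 to 28.3 ± 4.48 CPM (-3.28, SE 0.13), and ferredoxin 3 (MSTRG.49008) rose from 27.0 ± 3.27 to 88.1 ± 10.8 CPM (1.71, SE 0.12). The ferredoxin 3 gene with the most counts, MSTRG.17603, was at 225 CPM at 0 h and 257 CPM at 24 h (adjusted p = 0.127).

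Of the 7 ammonium transporter genes tested and nitrite reductase 1 (MSTRG.20529), 4 were higher and 4 lower at 24 h. Over all tested genes it was 34.7% higher and 39.1% lower. Ammonium transporter 1;1 (MSTRG.6537) rose from 14.6 ± 0.185 to 67.8 ± 1.05 CPM (2.22, SE 0.086) and ammonium transporter 2 (MSTRG.21660) from 14.1 ± 1.24 to 37.5 ± 2.95 CPM (1.41, SE 0.11). Other copies of both fell, MSTRG.3684 (ammonium transporter 1;1) from 13.3 to 2.47 CPM (-2.43, adjusted p = 1.13e-06) and MSTRG.43733 (ammonium transporter 2) from 11.6 to 4.79 CPM (-1.27, adjusted p = 1.66e-05). Among 10 genes of amino acid breakdown, 5 were higher and 2 lower at 24 h, beside the same 34.7 and 39.1% of all tested genes. Electron transfer flavoprotein beta (MSTRG.47053) and isovaleryl-CoA-dehydrogenase (MSTRG.1603), which work in the mitochondrial oxidation of branched-chain amino acids, rose by 1.82 (SE 0.080) and 1.80 (SE 0.070). The 2 that were lower act in the same route: electron transfer flavoprotein alpha (MSTRG.14272) changed by -0.76 (adjusted p = 3.76e-05) and the flavoprotein:ubiquinone oxidoreductase (MSTRG.31012) by -1.76 (adjusted p = 1.63e-08). The median log2 fold change at 24 h, -0.14 for all tested genes, was 0.50 for the 2-oxoglutarate genes, -2.01 for glutamine synthetase, -0.65 for the glycine and serine genes, 0.28 for ferredoxins and ferredoxin-NADP reductases, 0.29 for the ammonium transporters with nitrite reductase 1, and 0.27 for amino acid breakdown.

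**Figure D4:**
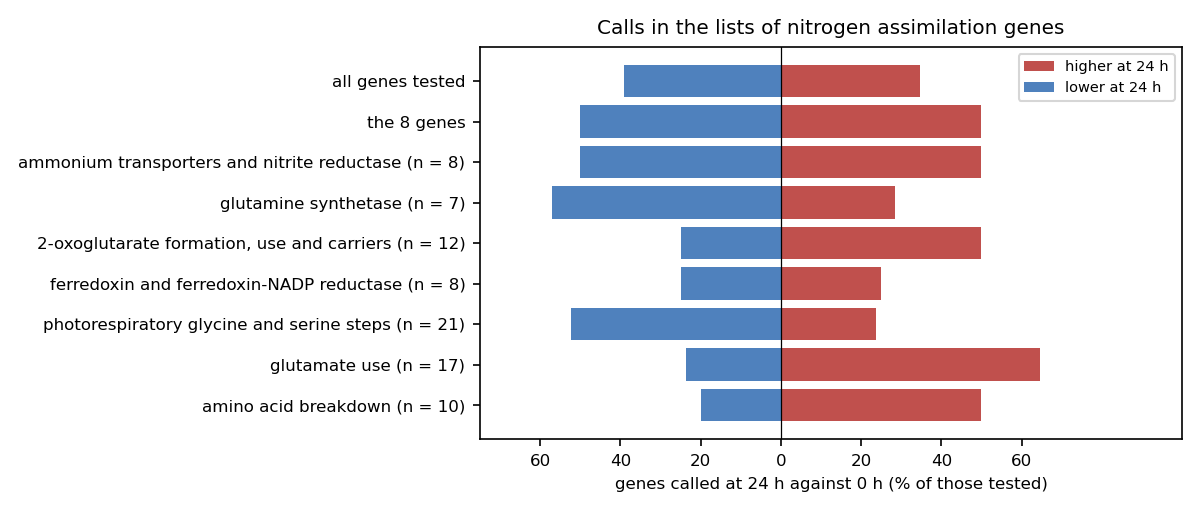
Share of tested genes called at 24 h against 0 h (%, adjusted p under 0.05 from edgeR), to the right for higher and to the left for lower, for all 26712 tested genes, the 8 genes described here and 7 lists of related genes with the number tested in each. The share called higher was 34.7% of all tested genes, and in the list of glutamate use 11 of 17 were higher. The list labelled photorespiratory also holds serine hydroxymethyltransferases 3, 4, 6 and 7.

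Genes taken as markers of leaf cell types moved over the same times. At 24 h, 34.7% of all tested genes were higher and 39.1% lower. The 18 tested mesophyll genes (rubisco, rubisco activase and light-harvesting proteins) summed to 14417 to 21361 CPM in the 0 h libraries, 4917 to 6850 at 9 h, 3728 to 4520 at 15 h and 1406 to 1629 CPM at 24 h, and 13 of them were lower and 2 higher at 24 h. The 31 tested phloem and vascular genes summed to 994 to 1161 CPM at 0 h, 920 to 982 at 9 h, 992 to 1136 at 15 h and 1466 to 1766 CPM at 24 h. All were described as phloem protein 2 or as sucrose-proton symporters. Phloem protein 2-A9 (MSTRG.38590) alone had a mean of 497 CPM at 0 h and 661 CPM at 24 h, so this sum is not read as a measure of phloem. Of the 31 genes, 14 were higher and 12 lower at 24 h. A gene described as phloem protein 2-A13 (MSTRG.2980) rose from 7.23 ± 0.446 to 154 ± 6.49 CPM. A second gene of that description (MSTRG.22678) fell from 4.51 to 0.996 CPM (-2.18, adjusted p = 0.000169). Of the sucrose-proton symporter 2 genes, which load sucrose into the phloem, MSTRG.38478 rose from 4.13 to 29.9 CPM and MSTRG.24691 fell from 99.0 to 19.7 CPM (-2.33, adjusted p = 3.88e-11). The meristem and bud list held KNOTTED-like homeobox, cyclin, cyclin-dependent kinase and minichromosome maintenance genes. Its 29 tested genes summed to 567 to 580 CPM at 0 h, 670 to 701 at 9 h, 629 to 651 at 15 h and 474 to 488 CPM at 24 h, when 6 were higher and 12 lower. The highest levels at 0 h were of KNOTTED-like genes, MSTRG.25798 (191 CPM), MSTRG.148 (102 CPM), MSTRG.42109 (94.0 CPM) and MSTRG.27842 (91.8 CPM). The highest of the cyclin, kinase and minichromosome maintenance genes was MSTRG.37757 at 18.6 CPM. The sum is therefore not read as a measure of meristem or bud. The median log2 fold change at 24 h, -0.14 for all tested genes, was -3.31 for the mesophyll genes, 0.12 for the phloem and vascular genes and -0.31 for the meristem and bud list. Their part in the levels of the 8 genes was not tested, and in bulk leaf RNA fewer cells of a type and less RNA per cell cannot be told apart.

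The genes whose log2 CPM followed each of the 8 most closely over the 12 libraries were sought among 12640 described genes with a mean of at least 10 CPM, by Pearson r. The 12 libraries are 3 at each of 4 times, and many genes share a time course, so r is given as a description. Closest to MSTRG.35351 were a thylakoid lumen 18.3 kDa protein (MSTRG.48671, r = 0.997), glutamine synthetase 2 (MSTRG.46808, r = 0.996) and the photosystem I antenna protein A4 (MSTRG.4833, r = 0.996). MSTRG.36184 was closest to chloroplast import apparatus 2 (MSTRG.25332, r = 0.998), an oligopeptide transporter (MSTRG.32269, r = 0.997) and a Rossmann-fold protein (MSTRG.2378, r = 0.996), and MSTRG.7022 to proton gradient regulation 3 (MSTRG.15479, r = 0.990), a LA RNA-binding protein (MSTRG.3773, r = 0.987) and a gene of unknown function placed at the nuclear pore (MSTRG.2134, r = 0.985).

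The 2 NADH-dependent genes had different neighbours, a methyltransferase (MSTRG.27231, r = 0.996), an ABC transporter (MSTRG.11183, r = 0.995) and a small MutS-related protein (MSTRG.26886, r = 0.994) for MSTRG.38570, and MEI2-like protein 1 (MSTRG.4262, r = 0.994), the calcium pump autoinhibited Ca(2+)-ATPase 10 (MSTRG.1361, r = 0.985) and a DnaJ-domain chaperone (MSTRG.26977, r = 0.981) for MSTRG.28369. The late course of MSTRG.49935 was closest to that of SKU5 similar 5 (MSTRG.23791, r = 0.992), which was at 6.72, 7.69, 8.06 and 52.7 CPM at 0, 9, 15 and 24 h, then to KCBP-interacting protein kinase (MSTRG.30176, r = 0.989) and a cation efflux protein (MSTRG.18842, r = 0.989). MSTRG.24393 was closest to a MYB-like regulator (MSTRG.33101, r = 0.997), adenylate kinase 1 (MSTRG.26268, r = 0.992) and RHOMBOID-like 1 (MSTRG.10208, r = 0.992). For MSTRG.43508, the gene of fewest counts among the dehydrogenases, the closest were fatty acid desaturase 6 (MSTRG.9880, r = 0.960), ribosomal protein L4 (MSTRG.4063, r = 0.953) and a PapD-like protein (MSTRG.7768, r = 0.953). MSTRG.43508 itself had a mean under 10 CPM and could not come up as a neighbour, and none of the other 7 was among the 3 nearest of another.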

How the data were processed

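The authors deposited 1 table of raw read counts per gene (whole numbers, no normalization), whose columns were matched to the sample titles by time and replicate number. According to the submitters' processing notes, reads went through StringTie 1.3.1, HISAT2 2.0.5, Trimmomatic and FastQC 0.10.1, in no stated order. Build, strand setting and read counter were not named in the sources used here. Differences were tested by edgeR 4.0.16 under R 4.3.3 (TMM, filterByExpr, glmQLFit, glmQLFTest, time as a factor), and a standard error is the log2 fold change divided by the square root of F. Ratios used a pseudocount of 0.5 on both counts for the test and none for the printed ratio. Log2 CPM for correlations had a prior count of 2. The fit was tested on simulated data for 9 h against 0 h. It recovered 16 of 67 genes changed by a fold of 1.5, 49 of 67 at a fold of 2 and 63 of 66 at a fold of 4. Of 24645 unchanged genes it called 4. Small changes could thus be missed. Replicate pairs differed by more than sampling noise. Named genes are the 8 genes, 3 nearest genes for each, and up to 2 per list (called, at least 10 CPM, largest change at 24 h). Further list genes, copies or partners of these that moved otherwise, were named after their values were seen. Genes of other families were removed from the lists by description. The genes and lists were chosen with earlier results of these data known. Alternatives were DESeq2 1.42.0, other scalings and filters, only the libraries compared, a replicate block, a fold of at least 2, other pseudocounts, unlogged ratios and leaving out each library.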

Additional observations from a re-analysis of the deposited data

How the results depend on the processing

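The 40 fold changes of the 8 genes (5 comparisons each) were recomputed under 8 other settings and without each of the 12 libraries. None of the called ones changed direction, and 753 of the 800 values were called or not called as in the main fit. A value not called under either setting counted as kept even where its sign changed. For example, MSTRG.49935 at 15 h against 0 h went from 0.21 to -0.09 with library size alone. With a test for a fold of at least 2 (glmTreat), 19 calls ended: 2, 4 and 5 of the 8 genes were then called at 9, 15 and 24 h against 0 h in place of 7, 7 and 8, 0 in place of 5 from 9 to 15 h (0 also at an unadjusted p under 0.05 in glmTreat, and 4 with the replicate block), and 3 in place of 6 from 15 to 24 h. Over all genes this test called 4036, 5589, 11130, 1542 and 4318 in the same order, in place of 14406, 15819, 19707, 10111 and 15136. Outside that test, 8 of the 40 changed call under some setting. The fall of MSTRG.49935 from 9 to 15 h was called with DESeq2 (-0.36, adjusted p = 0.0476), with library size alone (-0.45, adjusted p = 0.0205) and without 15 h replicate 3 (-0.55, adjusted p = 0.0082). That of MSTRG.35351 over the same step was called under 8 settings, with values from -0.33 to -0.42.

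All 105 alternative values of the 7 ratios kept their direction and call, with adjusted exact permutation p-values up to 0.0219. Of 270 alternative values for the sums, 262 were called or not called as before, again with sign changes of uncalled values counted as kept. The rise of the NADH-dependent sum from 15 to 24 h (0.52, adjusted p = 0.00207) ended with library size alone (0.15, adjusted p = 0.357). Replicate numbers did not pair the libraries: same-numbered libraries of different times had correlations of deviations from -0.079 to 0.061 in 18 pairs, and 3 of 12 libraries correlated best with their own number. With the replicate number as a block, 1 call ended, that of MSTRG.7022 from 9 to 15 h (-1.46, adjusted p = 0.0558).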
